A study of Rattus norvegicus with 3 samples.

Results

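Expression of the citric acid cycle enzymes outside succinate dehydrogenase was examined in the soleus of rats, a calf muscle of mostly slow fibres that holds posture. The 9 genes Cs, Idh3a, Idh3b, Idh3g, Ogdh, Dlst, Sucla2, Suclg1 and Mdh2 were looked up by name among probe sets annotated with exactly 1 symbol, and the brightest probe set of each gene was used. A value was obtained for 8 of the 9, out of 14506 genes measured in all. The probe set that lists Dlst, which encodes the succinyltransferase core of the 2-oxoglutarate dehydrogenase complex, also carries the symbol of another gene, so no expression value of Dlst was used here. All 8 genes passed the filter on dim genes and lay among the 10154 genes compared.

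The muscles came from rats of a strain labelled Brown, aged 7 weeks. Group DN was denervated and irradiated, group TS was suspended by the tail, which takes the load off the hind limbs, and irradiated, and group Ct was irradiated only. Irradiation was the same in all 3 groups and reached 50 mSv over 2 weeks, so no group was free of it. For each group, the RNA of 6 rats was combined into a pool and hybridised to 1 Affymetrix Rat Gene 1.0 ST array, which gives no spread between animals and no test between groups. Each difference therefore describes a pair of pools. The sources used here do not give the sex of the rats, whether other groups had sham surgery, or the time from nerve section or suspension to sampling.

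The citric acid cycle runs in the mitochondrial matrix. It joins acetyl-CoA to oxaloacetate, oxidises the product back to oxaloacetate in a ring of reactions, and passes the electrons to the respiratory chain as NADH and reduced flavin. In soleus, whose slow fibres are rich in mitochondria and work for long periods, the cycle is a main route of fuel oxidation, and the activity of citrate synthase, the product of Cs, is widely used as a measure of mitochondrial content.

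Values are RMA signals on a log2 scale, on which a step of 1 is a doubling, and differences are given as log2 differences. A gene was counted as lower or higher where it differed by at least 1.5-fold, which is 0.585 on this scale. Array medians lay between 6.32 and 6.35 over all 29170 probe sets. The 8 cycle genes were bright, with means over the 3 arrays from 10.70 for Suclg1 to 12.42 for Mdh2, and the highest value of any probe set was 13.99. Markers of skeletal muscle, namely Myh7, Tnnt1, Tnni1, Myl2, Acta1, Ckm, Mb and Des, read between 11.31 and 13.99 on every array. Not all of them are particular to slow fibres.

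All 8 cycle genes read below Ct in denervated soleus, and 7 of the 8 read below Ct in suspended soleus. Of all compared genes, 24.3% read below Ct in DN and 22.7% in TS, while 42.9% and 24.7% were exactly equal to Ct. The median difference from Ct was -0.66 in DN and -0.37 in TS, while the median over all compared genes was 0.00 in DN and 0.02 in TS. In DN, 5 of the 8 genes lay below Ct by 1.5-fold or more and none above it, against 5.53% of all compared genes that were lower and 4.93% that were higher. In TS, 1 of the 8 lay below Ct by that much and none above it, against 2.68% lower and 5.89% higher among all compared genes. Bright genes were more often lower. Of the 771 compared genes at least as bright as Suclg1, 15.2% were lower by 1.5-fold or more in DN and 8.04% in TS. Both comparisons use the same Ct array and so are not independent of each other. Suclg1 lay just inside the limit in DN, with a difference of -0.63, and Idh3g just outside it, with -0.56. In whole muscle, fewer fibres or mitochondria and less transcript in each cannot be told apart.

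**Figure D1:**
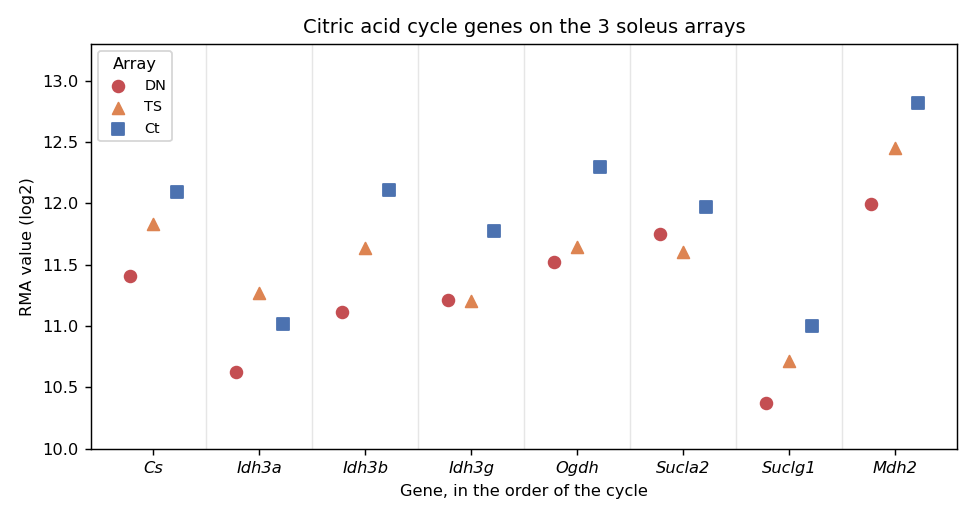
RMA values (log2, y axis) of the 8 measured citric acid cycle genes (x axis, in the order of the reactions) on the DN, TS and Ct arrays, 1 point per pooled array with no error available. DN is the lowest of the 3 for Cs, Idh3a, Idh3b, Ogdh, Suclg1 and Mdh2, TS is the lowest for Sucla2 and level with DN for Idh3g, and Ct is the highest for every gene but Idh3a.

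The arrays had a slightly different level. Over the compared genes the median was 8.13 in DN and 8.25 in TS, against 8.12 in Ct. When each array was centred on that median, the median of all compared genes in TS minus Ct moved to -0.12, the median of the cycle genes to -0.50, and the count of cycle genes at least 1.5-fold lower in TS to 3, against 3.94% of all compared genes. RMA of 3 arrays often returns the same value for a pair of arrays, and 42.9% of compared genes were exactly equal in DN and Ct, 24.7% in TS and Ct and 26.3% in DN and TS. None of the 8 cycle genes was equal between any pair of arrays.

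The sequence just upstream of the start sites of the listed genes was searched for sites of factors known to drive mitochondrial genes. RefSeq promoter windows of the GRCr8 assembly were found for 8 of the 9 listed genes, Dlst included and Idh3a without a window, and the 250 bases before the start were read. The letters CCGGAAGT, a site of the Ets factor GABP, occurred on either strand in 2 of the 8 windows, those of Mdh2 and Dlst, against 3.1% of all 33469 windows and 6.73% of those of 8415 other compared genes. In Mdh2 the match began 242 bases before the start, and in Dlst 21 bases before it on the opposite strand. The letters AAGGTCA, the half-site of estrogen-related receptors, were in none of the 8 windows, against 3.99% of all windows and 2.45% of those of the other compared genes. GCGCATGC, from the site of NRF1, was in none either, against 2.2% of all windows and 4.46% of those of the other compared genes. With shares this low, a count of none among 8 windows was likely beforehand. These counts say only which letters are in the windows, and Dlst has no expression value to set beside its match. The windows held a median of 17 CpG dinucleotides, between 13 in Idh3b and 26 in Mdh2, and the median over the other compared genes was 16. The 250 upstream bases are shown 5′ to 3′ for the gene with the largest difference in DN (Idh3b, chr3:137939991-137940240, minus strand), the gene with the smallest (Sucla2, chr15:55161644-55161893, plus strand) and the measured gene with an Ets match (Mdh2, chr12:26543842-26544091, minus strand), with CpG dinucleotides in capitals.
Idh3b: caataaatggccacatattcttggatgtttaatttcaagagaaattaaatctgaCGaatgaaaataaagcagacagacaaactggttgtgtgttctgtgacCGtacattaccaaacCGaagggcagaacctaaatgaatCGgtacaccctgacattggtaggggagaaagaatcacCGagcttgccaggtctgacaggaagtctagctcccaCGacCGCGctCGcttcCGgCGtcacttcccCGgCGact
Sucla2: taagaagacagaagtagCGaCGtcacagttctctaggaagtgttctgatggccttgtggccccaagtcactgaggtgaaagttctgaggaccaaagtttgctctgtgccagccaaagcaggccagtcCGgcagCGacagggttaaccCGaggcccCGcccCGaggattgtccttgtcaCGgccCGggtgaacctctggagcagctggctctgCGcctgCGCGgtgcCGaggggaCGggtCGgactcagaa
Mdh2: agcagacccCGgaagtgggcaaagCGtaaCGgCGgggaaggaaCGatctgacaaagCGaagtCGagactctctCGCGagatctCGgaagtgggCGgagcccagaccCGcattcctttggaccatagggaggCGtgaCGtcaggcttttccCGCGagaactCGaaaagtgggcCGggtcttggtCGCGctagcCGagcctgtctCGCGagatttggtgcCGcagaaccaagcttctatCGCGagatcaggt
The match of Mdh2 lies near the left end of its line.

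At the entry to the cycle, Cs encodes citrate synthase, which joins acetyl-CoA to oxaloacetate. Cs read 11.41 in DN, 11.83 in TS and 12.09 in Ct. It was lowest in DN, with TS between DN and Ct. The difference from Ct was -0.68 (1.61-fold lower) in DN and -0.26 in TS (1.20-fold lower). A further, much dimmer probe set of Cs read 7.04 in DN, 6.97 in TS and 7.04 in Ct, and so showed no difference between DN and Ct. Aconitase, the next enzyme, was not analysed here.

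NAD-dependent isocitrate dehydrogenase, an enzyme of alpha, beta and gamma subunits and a regulated step of the cycle, showed a wide range among its own subunits. Idh3a, the catalytic alpha subunit, read 10.62 in DN, 11.27 in TS and 11.02 in Ct. It was lower than Ct in DN (-0.39, 1.31-fold) and higher than Ct in TS (0.25, 1.19-fold), both short of 1.5-fold, and it was the only one of the 8 cycle genes that stood above Ct on either array. Idh3b, the beta subunit, read 11.12 in DN, 11.63 in TS and 12.11 in Ct. Its difference of -0.99 for DN minus Ct, or 1.99-fold lower, was the largest of the 8 genes, and 2.27% of compared genes lay lower still. In TS it stood at -0.48 (1.39-fold lower). Idh3g, the gamma subunit, which takes part in allosteric control, read 11.21 in DN, 11.21 in TS and 11.78 in Ct, so DN and TS lay level and both below Ct, by 1.48-fold each. The 3 subunits thus spanned 0.60 in DN minus Ct, 0.82 in TS minus Ct and 0.65 in DN minus TS. For comparison, the filter was also passed by a second probe set of 401 genes, and the differences from Ct of both probe sets of such a gene disagreed by a median of 0.04 in DN and 0.11 in TS, with 95th percentiles of 0.33 in DN and 0.76 in TS. That disagreement is between probe sets on the same arrays and holds nothing of the spread between animals. It is also a difference within a pair, which tends to be smaller than a span over 3 genes. For DN minus TS its median was 0.10 and its 95th percentile 0.78. A pair of probe sets that both equal Ct disagrees by 0, and 42.9% of compared genes were equal in DN and Ct. The measure can thus be too small for genes without equal values, such as these. For Cs, DN minus Ct was -0.68 on the probe set used and 0.00 on a much dimmer one.

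The 2-oxoglutarate dehydrogenase complex makes succinyl-CoA. Ogdh, its first component, which decarboxylates 2-oxoglutarate, read 11.53 in DN, 11.65 in TS and 12.30 in Ct. Both DN and TS were well below Ct, and they lay close to each other. Ogdh was 1.71-fold lower in DN (-0.77) and 1.57-fold lower in TS (-0.65), and it was the only cycle gene of the 8 past the 1.5-fold limit in TS, where 2.11% of compared genes lay lower. Dld, the lipoamide dehydrogenase that this complex shares with pyruvate dehydrogenase, is not one of the 9 listed genes and differed less, by -0.51 in DN and -0.17 in TS.

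Succinyl-CoA ligase turns succinyl-CoA into succinate with the gain of a nucleoside triphosphate. Its alpha subunit Suclg1, common to both forms of the enzyme, read 10.37 in DN, 10.71 in TS and 11.00 in Ct. The order was that of Cs, with differences of -0.63 (1.55-fold lower) in DN and -0.29 (1.23-fold lower) in TS. Sucla2, the beta subunit of the ADP-forming ligase, read 11.75 in DN, 11.60 in TS and 11.98 in Ct. It had the smallest DN minus Ct difference of the 8 genes, -0.23, and a larger one in TS, -0.37, so that DN lay 0.14 above TS. Suclg2, the beta subunit of the GDP-forming ligase and also outside the 9 listed genes, stood at -0.40 in DN and -0.13 in TS. Of the pair of beta subunits, Suclg2 was thus the lower against Ct in DN and Sucla2 the lower in TS.

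Mdh2, the malate dehydrogenase of the matrix, closes the ring by returning malate to oxaloacetate. It read 12.00 in DN, 12.45 in TS and 12.82 in Ct, the brightest of the 8 genes on each array. Mdh2 was 1.77-fold lower in DN (-0.83) and 1.29-fold lower in TS (-0.37). Fumarase, the step before it, was not analysed here. Between succinyl-CoA ligase and fumarase stand the subunits of succinate dehydrogenase, all 4 of which were at least 1.5-fold lower in DN, from -0.68 for Sdhb to -1.18 for Sdhc. In TS they ran from -0.16 for Sdhd to -0.63 for Sdhb, the only one of them past 1.5-fold. Of all compared genes, 5.53% were lower by that much in DN and 2.68% in TS.

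**Figure D2:**
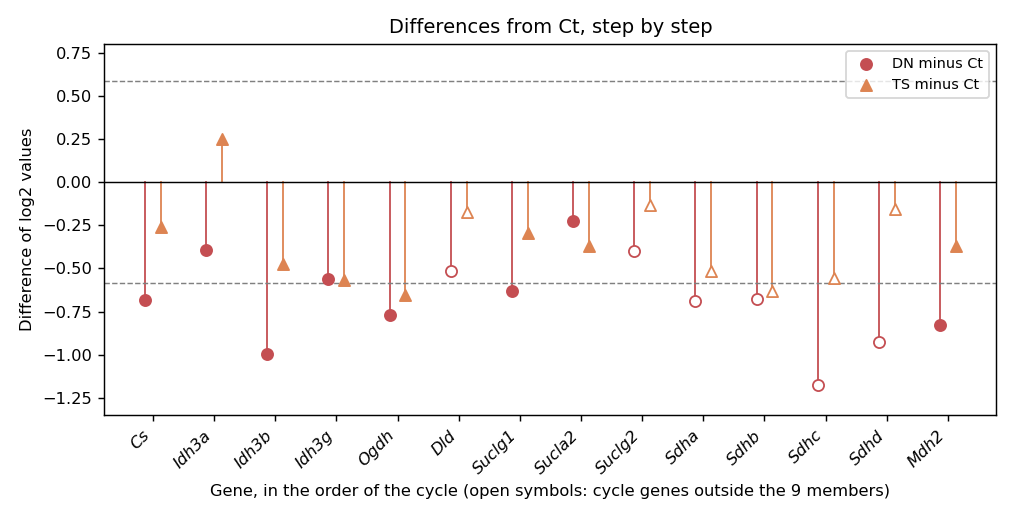
Differences of log2 values from Ct (y axis) for DN (circles) and TS (triangles), gene by gene in the order of the cycle (x axis), with filled symbols for the 8 measured members, open symbols for other cycle genes and dashed lines at 1.5-fold. Every DN symbol lies below 0, from -0.23 for Sucla2 to -1.18 for Sdhc, and Idh3a in TS, at 0.25, is the 1 symbol above 0.

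Set directly against suspended soleus, denervated soleus read lower for 6 of the 8 genes, against 50.3% of all compared genes. The median difference was -0.38 for the 8 genes and -0.00 over all compared genes. Idh3a had the largest difference, -0.64 or 1.56-fold lower in DN, and was the 1 gene past the limit, against 5.93% of all compared genes that were lower in DN than in TS and 3.2% that were higher. Among the 771 bright genes the share lower was 6.36%. Idh3b (-0.52), Mdh2 (-0.46), Cs (-0.42) and Suclg1 (-0.34) were lower in DN by less than 1.5-fold. Ogdh (-0.12) and Idh3g (0.01) lay near 0, where the sign depends on the scaling: with centred arrays Ogdh stood at 0.00 and above 0, and with quantile normalization Idh3g stood at -0.03. Sucla2 (0.14) was the remaining gene and read higher in DN. With centred arrays the median was -0.25, against 0.12 over all compared genes. Idh3a then stood at -0.52 and no cycle gene was past 1.5-fold, against 3.76% of all compared genes that were lower.

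**Figure D3:**
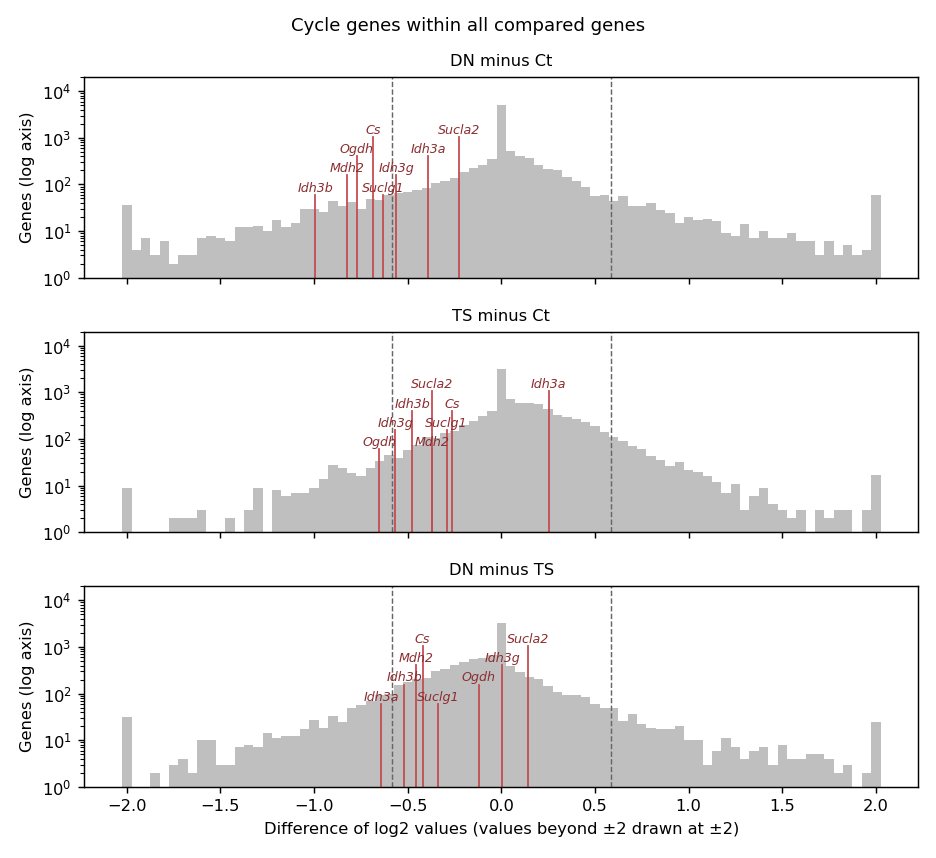
Numbers of the 10154 compared genes (y axis, log scale) by difference of log2 values (x axis, bins of equal width), with a panel for each of the 3 comparisons, the 8 cycle genes as red lines whose heights carry no meaning, and the 1.5-fold limits dashed. In DN minus Ct 5 red lines lie beyond the left limit, in TS minus Ct only that of Ogdh and in DN minus TS only that of Idh3a.

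The reactions that feed the cycle with pyruvate showed larger differences than the cycle itself for single genes. Of 13 genes of pyruvate entry, 7 were at least 1.5-fold lower in DN and none higher, with a median of -0.77. In TS 4 were lower and 1 higher, with a median of -0.32. Over all compared genes the shares were 5.53% lower and 4.93% higher in DN, and 2.68% lower and 5.89% higher in TS. Mpc1, a subunit of the mitochondrial pyruvate carrier, read 8.82 in DN, 9.64 in TS and 10.72 in Ct, and Mpc2, its partner, 9.16 in DN, 9.76 in TS and 10.56 in Ct. Pdp2, a phosphatase that switches pyruvate dehydrogenase on, stood at -1.46 in DN and -0.66 in TS. Pdk4, a kinase that switches it off, was the 1 gene that was higher in TS, at 1.36, and it stood at -0.34 in DN.

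Enzymes that carry out like reactions outside the NAD-linked cycle differed in both directions. Mdh1, the cytosolic malate dehydrogenase of the malate-aspartate shuttle, read 11.50 in DN, 12.27 in TS and 12.97 in Ct, and its differences of -1.47 and -0.70 from Ct were larger than those of its matrix counterpart Mdh2. Idh2, the NADP-linked isocitrate dehydrogenase of mitochondria, read 11.69 in DN, 12.24 in TS and 13.02 in Ct, a larger difference from Ct on both arrays than that of any Idh3 subunit, although Mdh1 and Idh2 lie near the top of the array's range in Ct. Me2, a mitochondrial malic enzyme that makes pyruvate from malate, went the other way and read 9.36 in DN, 8.48 in TS and 7.81 in Ct, 2.92-fold higher in DN and 1.58-fold higher in TS. Me3, its NADP-linked relative, stood at -0.74 in DN and -0.41 in TS. Over all 8 genes of this kind the median was -0.11 in DN, with 3 lower and 1 higher. In TS the median was -0.04, with 2 lower and 1 higher. Among all compared genes 5.53% were lower and 4.93% higher in DN, and 2.68% lower and 5.89% higher in TS. Counts of 1 or 2 in so short a list are not read as results.

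Of 12 compared genes of reactions that fill or drain the cycle, 6 were at least 1.5-fold lower in DN and none in TS, and none was higher in either. Their medians were -0.49 in DN and -0.13 in TS. For all compared genes the shares were 5.53% lower and 4.93% higher in DN, and 2.68% lower and 5.89% higher in TS. Got1, the cytosolic aspartate aminotransferase, stood at -0.97 in DN and -0.57 in TS. The other named genes of this list, Bcat2 (-0.88 in DN, 0.34 in TS), Dbt (-0.89 in DN, 0.16 in TS) and Bckdhb (-0.80 in DN, -0.44 in TS), encode enzymes of branched-chain amino acid breakdown. Of 5 compared mitochondrial metabolite carriers, not all of them for cycle intermediates, none was past 1.5-fold in either comparison with Ct. The 2-oxoglutarate carrier Slc25a11 had the largest difference there, -0.43 in DN and -0.54 in TS, followed by the dicarboxylate carrier Slc25a10 with 0.00 in DN and 0.30 in TS. The amino acid carriers Slc25a44 and Slc25a29 stood within 0.1 of Ct.

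Downstream of the cycle, 18 of 21 respiratory chain and ATP synthase subunits were at least 1.5-fold lower in DN and 8 of 21 in TS. None was higher, and the medians were -0.92 and -0.50. The shares lower in DN and TS were 5.53% and 2.68% over all compared genes, and 15.2% and 8.04% over the 771 bright genes. Ndufs3 (-1.62 in DN, -0.85 in TS), Cox8b (-1.48 in DN, -1.15 in TS), Ndufb8 (-1.10 in DN, -0.43 in TS) and Ndufa9 (-1.03 in DN, -0.65 in TS) had the largest differences in DN. Mitochondrial import, chaperone and outer membrane genes differed less. Of 14, 5 were at least 1.5-fold lower in DN and none in TS, with medians of -0.28 and -0.12, and the lowest in DN were the outer membrane channel Vdac1 (-0.88), the import channel subunit Timm23 (-0.68), its motor partner Timm44 (-0.65) and the prohibitin Phb2 (-0.65). In TS these 4 stood at -0.45, -0.11, -0.11 and -0.42.

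Among 12 regulators of oxidative genes, 5 were at least 1.5-fold lower in DN and 2 in TS. None was higher, and the medians were -0.40 and -0.16. The shares lower among all compared genes were 5.53% in DN and 2.68% in TS. A count of 2 in so short a list is not read as a result. Perm1, a muscle regulator that acts with PGC-1 and estrogen-related receptors, read 6.06 in DN, 8.19 in TS and 10.39 in Ct. Ppara, a nuclear receptor of fatty acid oxidation, stood at -1.28 in DN and -0.59 in TS. Esrra and Esrrg, which encode estrogen-related receptors, stood at -0.90 and -0.76 in DN and at -0.18 and -0.32 in TS. The part of these regulators in the level of the cycle genes was not tested.

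**Figure D4:**
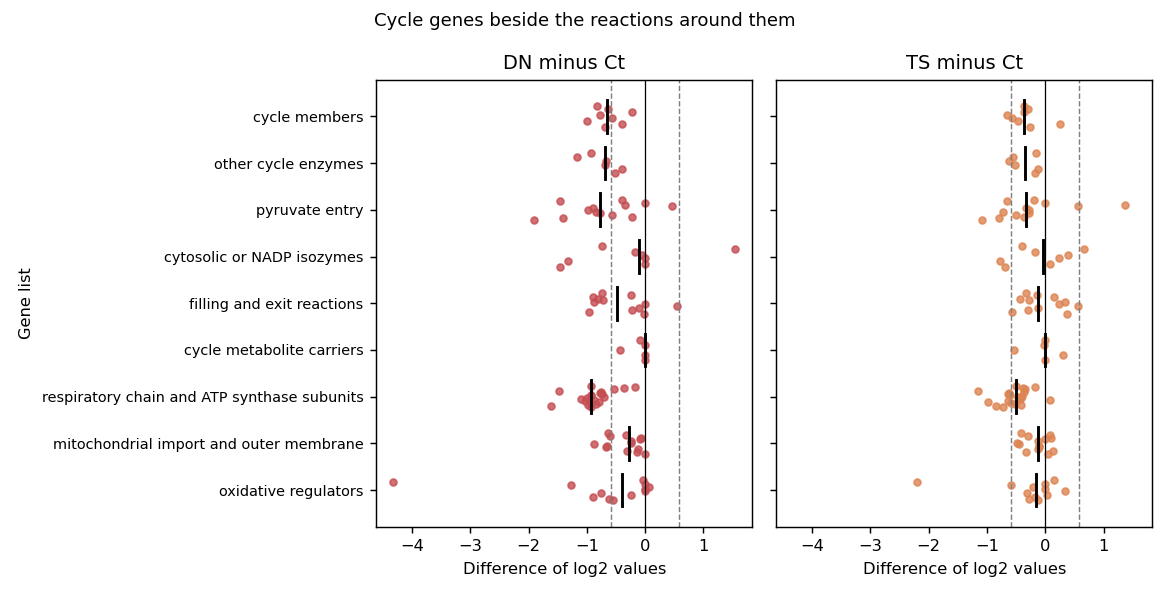
Differences of log2 values from Ct (x axis) for the compared genes of each list (rows), in DN (left) and TS (right), 1 point per gene, with a black bar at the list median and dashed lines at 1.5-fold. The medians of the 8 cycle genes, -0.66 in DN and -0.37 in TS, lie between those of respiratory chain subunits (-0.92 and -0.50) and those of mitochondrial import genes (-0.28 and -0.12).

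Compared genes were ranked by how near their differences from Ct lay to the median of the cycle genes. Symbols starting with LOC, RGD, Olr, Vom or Mir were passed over. The nearest of the rest were Dmac2, Akr1e2, Sh3bgr, Mtfr1l, Ndufb2 and Coq3. Their distances in the plane of both differences ran from 0.03 to 0.04. The ranking held 10146 genes on 3 arrays before those symbols were passed over. Dmac2 read 8.13 in DN, 8.46 in TS and 8.81 in Ct, and Ndufb2, a complex I subunit, 11.42 in DN, 11.73 in TS and 12.11 in Ct. Of the 8 cycle genes, Suclg1 (0.08) and Cs (0.11) lay nearest to their own median pattern and Idh3a (0.68) farthest from it.

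Markers of muscle and of other cells were also read. Of all compared genes, 5.53% were at least 1.5-fold lower in DN and 4.93% higher, and in TS 2.68% were lower and 5.89% higher. For the 771 bright genes the shares lower were 15.2% in DN and 8.04% in TS. Counts of 1 or 2 in such short lists are therefore not read as results about the markers. Of the 8 skeletal muscle markers, 2 were at least 1.5-fold lower in DN (Myl2 and Ckm) and 1 in TS (Myl2), and none was higher. They summed to 66878 in DN and 74525 in TS, against 83343 in Ct, on the linear scale, and the 8 cycle genes to 20689 in DN and 25251 in TS, against 32719 in Ct. Adipocyte markers had 3 of 6 genes at least 1.5-fold higher in both DN and TS, and summed to 4949 in DN and 4066 in TS, against 3508 in Ct. Macrophage markers had none of 6 past 1.5-fold in DN and 3 higher in TS, and summed to 3153 in DN and 4186 in TS, against 2519 in Ct. Endothelial markers, with 2 of 5 lower in DN and 1 in TS, summed to 3552 in DN and 4143 in TS, against 4945 in Ct. Fibroblast and tendon markers, with 2 of 6 lower in each comparison and 1 higher in TS, summed to 17101 in DN and 17266 in TS, against 17775 in Ct. Schwann cell markers had 1 of 4 higher in each, Ncam1, which denervated muscle fibres are also known to express, and summed to 2971 in DN and 1444 in TS, against 927 in Ct. That sum moved mainly with Ncam1, which read 11.28 in DN, 9.93 in TS and 8.95 in Ct. On the probe sets used, Mbp and Sox10 were equal on all 3 arrays, and S100b stood at 0.31 in DN and 0.21 in TS. Of 6 smooth muscle markers 1 was lower in DN and none in TS, and they summed to 8860 in DN and 9531 in TS, against 10083 in Ct. Of 2 compared erythroid markers none was past 1.5-fold in either comparison with Ct. In DN minus TS both were lower by at least that much, against 5.93% of all compared genes. All 3 measured erythroid markers summed to 1678 in DN and 3116 in TS, against 2142 in Ct. The part of these differences in the values of the cycle genes was not tested.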

How the data were processed

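Soleus RNA pooled from 6 rats per group was hybridised to 1 array per group. The series text speaks of 2 arrays, and 3 samples with values were used. Groups were taken from the source labels. The deposited log2 values were made by the authors with Affymetrix Expression Console and RMA in a core-exon analysis, per the submitters' processing notes and the description labels. RMA corrects background, normalizes across arrays and summarises the probes of a set, so small differences can be compressed or set to exactly 0. The base of the logarithm is not stated and was read as 2 from the range of 1.77 to 13.99. No tool version or genome build is given in the sources used here.

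The platform annotation supplied gene names. It gave 1 symbol to 15310 of 29170 probe sets, several to 323 and none to 13537. Identifiers of 15279 were found in a GRCr8 gene table, and no symbol changed. The brightest probe set by mean of the 3 arrays stood for each gene, and genes at or above the 30th percentile of the mean (5.72) were compared. Log2 values of DN and TS were set against Ct and those of DN against TS by subtraction. A single array per group allowed no test, and the number of arrays limits the precision. The procedure was also run on simulated arrays without noise, with shifts all larger than the limit. That run checks the calculation only and says nothing about error in the real arrays.

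The members and gene lists were chosen with earlier results of these data known. Genes named were all members, the other cycle enzymes and up to 4 genes per further list with the largest difference from Ct. The 6 genes nearest to the median pattern were named too, with symbols starting with LOC, RGD, Olr, Vom or Mir passed over. Ncam1, Mbp, Sox10, S100b and the muscle markers past the limit were named after their values were seen. Alternatives were centring, quantile normalization, loess, 32 added on the linear scale, other probe sets, other limits and other filters. Protein sequences were not used here. Python 3.11.15, numpy 2.4.6, pandas 2.3.3, statsmodels 0.14.6 and matplotlib 3.10.9 were used.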

Additional observations from a re-analysis of the deposited data

Results flagged for a closer look

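Of the cycle genes and the named genes around them, 4 lay below Ct in DN and above it in TS, each by at least 0.1 (log2) on both sides. The share of all compared genes that meet this rule was not counted. Named genes outside the cycle had also been picked for large differences from Ct, so the count is not read as a result. Idh3a differed by -0.64 between DN and TS, with -0.39 from Ct in DN and 0.25 in TS. Pdk4 differed by -1.70, with -0.34 in DN and 1.36 in TS. Dbt differed by -1.05, with -0.89 in DN and 0.16 in TS, and Bcat2 by -1.22, with -0.88 in DN and 0.34 in TS. With each array centred on its median, the TS minus Ct difference of Dbt was 0.02 and so no longer reached 0.1. These differences were not tested, since each group has 1 array, and both comparisons share the Ct array.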

How the results depend on the processing

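The medians of the cycle genes stayed negative in all 3 comparisons under every scaling, probe set and filter setting tried. Centring each array moved the TS minus Ct median to -0.50 and its count of genes at least 1.5-fold lower to 3, and the DN minus TS median to -0.25 and its count to 0. Averaging the probe sets of each gene gave a DN minus TS median of -0.26 and the dimmest probe set one of -0.23. Only Cs has a further probe set among the 8 genes, and with the dimmest its DN minus Ct difference was 0.00, which ended its place past 1.5-fold and left 4 genes lower, as did the mean of its probe sets (-0.34). With the dimmest probe set, the DN minus TS difference of Cs stood at 0.07. Over the 24 differences of single cycle genes, centring moved 16 by at least 0.1 and turned the sign of 1, that of Ogdh in DN minus TS, while 32 added, loess and quantile normalization moved 0 by that much, and quantile normalization turned the sign of 1, that of Idh3g in DN minus TS. Over the 120 differences of the other named genes, centring moved 80 by at least 0.1, turned 2 signs and carried 9 across the 1.5-fold limit. Adding 32 carried 4 across it, loess 3, quantile normalization 2 and the dimmest probe set 1. A 2-fold limit left 0 genes in each of the 3 comparisons, against 2.24% of compared genes in DN minus Ct, 0.689% in TS minus Ct and 1.74% in DN minus TS. A looser limit (log2 0.322) gave 7 genes lower in DN minus Ct, against 9.57% of compared genes, 5 in TS minus Ct (6.62%) and 5 in DN minus TS (16.8%). Centring shifts every TS minus Ct difference by -0.13, and it carried Idh3b (-0.61) and Idh3g (-0.70) past the limit there. No paired analysis was possible because each group has 1 array and the labels give no replicate numbers, and for the same reason no replicate could be left out.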
